A study of Mus musculus with 9 samples.

Results

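The genes described here are the integrins, the laminins and the nidogens of mouse muscle. They were chosen by symbol alone, as every listed gene named as an integrin α or β subunit, a laminin α, β or γ chain, or a nidogen. The rule found 38 of the 14971 genes listed for the study: 17 integrin α subunits, 8 integrin β subunits, 5 laminin α chains, 3 laminin β chains, 3 laminin γ chains and 2 nidogens. All but 1 of them, 37 genes, were listed for all 3 groups. The exception was Lama1, listed for ORX and ORX+DHT libraries alone.

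RNA was sequenced from the tibialis anterior, a fast muscle at the front of the lower leg, of male C57BL/6J mice. The 3 groups, of 3 libraries each, were control males, orchiectomised males (ORX, testes removed) and orchiectomised males given dihydrotestosterone (ORX+DHT), all sampled 4 weeks after treatment. Both ORX and ORX+DHT animals lacked testes, so the androgen (dihydrotestosterone, DHT) is the stated difference between them. The controls are called sham in the deposited tables. The labels number biological replicates without stating that each library came from its own animal, so the p-values measure the spread between these libraries. Neither the age of the mice nor the DHT dose is given in the sources used here.

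Every muscle fibre is wrapped in a basement membrane, a sheet of laminin and collagen IV networks. A laminin is a cross-shaped trimer of an α, a β and a γ chain, and nidogens bridge the laminin network to collagen IV. Integrins are membrane receptors made of an α and a β subunit: outside the cell they hold laminin, collagen or fibronectin, and inside they are tied to actin. In mature fibres the main laminin trimer holds the chains of Lama2, Lamb1 and Lamc1, and its receptors are the Itga7 and Itgb1 integrin and dystroglycan. Loss of LAMA2 or of ITGA7 causes muscular dystrophy or congenital myopathy in people.

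Values are normalised counts, reads divided by a scaling factor of the library, set on 1 scale over all 9 libraries. The libraries held 1340209 to 1682235 reads over the listed genes. Muscle fibre markers (Acta1, Ckm, Myh4, Mylpf and Tnnt3) summed to 212533 to 266654 normalised counts in controls, 176143 to 185546 after orchiectomy and 186145 to 207388 with DHT. Of 4 neutrophil markers only 2, S100a8 and Csf3r, were listed for all 3 groups, and these summed to at most 1.25. Control replicate 1 stood apart for these genes: it was the lowest of the 3 controls for 15 of the 21 tested members (71.4%), against 40.5% of all 8631 genes tested. Its median deviation from the other controls was -0.53 on the log2 scale for the members and 0.01 for all genes. For the 2158 genes with the longest exon models the median deviation was -0.33, and 66.1% were lowest in control replicate 1. The tested members had a median exon length of 7.69 kb and all tested genes one of 4.87 kb. The part of transcript length or of this library's RNA in the results was not tested. Most member results against the controls are also given without control replicate 1.

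A gene was tested where its mean over the libraries compared was at least 10 normalised counts, which 21 members met in at least 1 comparison. The other 16 of the 37 had means of 0.561 to 5.21 normalised counts and at most 7 reads in a library. Most are known from other cells: the leukocyte integrins Itgal, Itgam, Itgax, Itgae, Itgb2 and Itgb7, the platelet integrin Itga2b with Itgb3, and the epithelial laminin chains Lama3 and Lamb3. Also in this low set were the collagen receptors Itga2 and Itga10, Itga8, Itgb8 and Lamc3. Lama1, the laminin α chain of early embryonic basement membranes, had 0 reads in each ORX library and 1, 0 and 1 reads in the ORX+DHT libraries. With no filter, limma called none of these 17 genes in any comparison it could test. In ORX+DHT against ORX without the filter, 14 of all 38 members had an unadjusted p under 0.05, against 1674 of all 14675 genes. Under the filter there were 8 of 20 members, against 14.3% of all genes.

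To compare genes with each other, levels were divided by exon length, since longer transcripts give more reads. Itgb1, the β subunit shared by most matrix-binding integrins, was the highest member at 107 normalised counts per kb of exon over the 9 libraries. Lamb2 followed at 60.8, then Itgb5 at 39.9, Itga7 at 24.9, Lamc1 at 23.9 and Nid1 at 19.6 normalised counts per kb. Itgb6 stood at 10.6 and Lama5 at 8.53 normalised counts per kb, with Itga6 between them, and all others under 6. The order of Itga7 and Lamc1 is not settled by values this close, and exon length is a union over a gene's transcripts that can exceed the expressed one.

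The mean shares of each family's level per kb over the 9 libraries were uneven. Itga7, the laminin-binding α subunit of muscle fibres, made up 41.7% of the integrin α total, ahead of the laminin receptor subunit Itga6 at 16.7% and the fibronectin receptor subunit Itga5 at 9.88%. Itgb1 made up 66.3% of the β total, and Itgb5 and Itgb6, which pair with Itgav, 24.9% and 6.63%. Lamb2 made up 90.3% of the laminin β level, Lamc1 96.5% of the γ level and Nid1 85.7% of the nidogen level. Among laminin α chains Lama5 held 50.8%, Lama4 26.2% and Lama2 21.1%, and Lama5 and Lama4 are known from vessel walls and nerve endings. Reads from vessels, nerves and connective tissue enter the same libraries, and in whole muscle fewer cells of a type and less RNA per cell cannot be told apart.

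**Figure D1:**
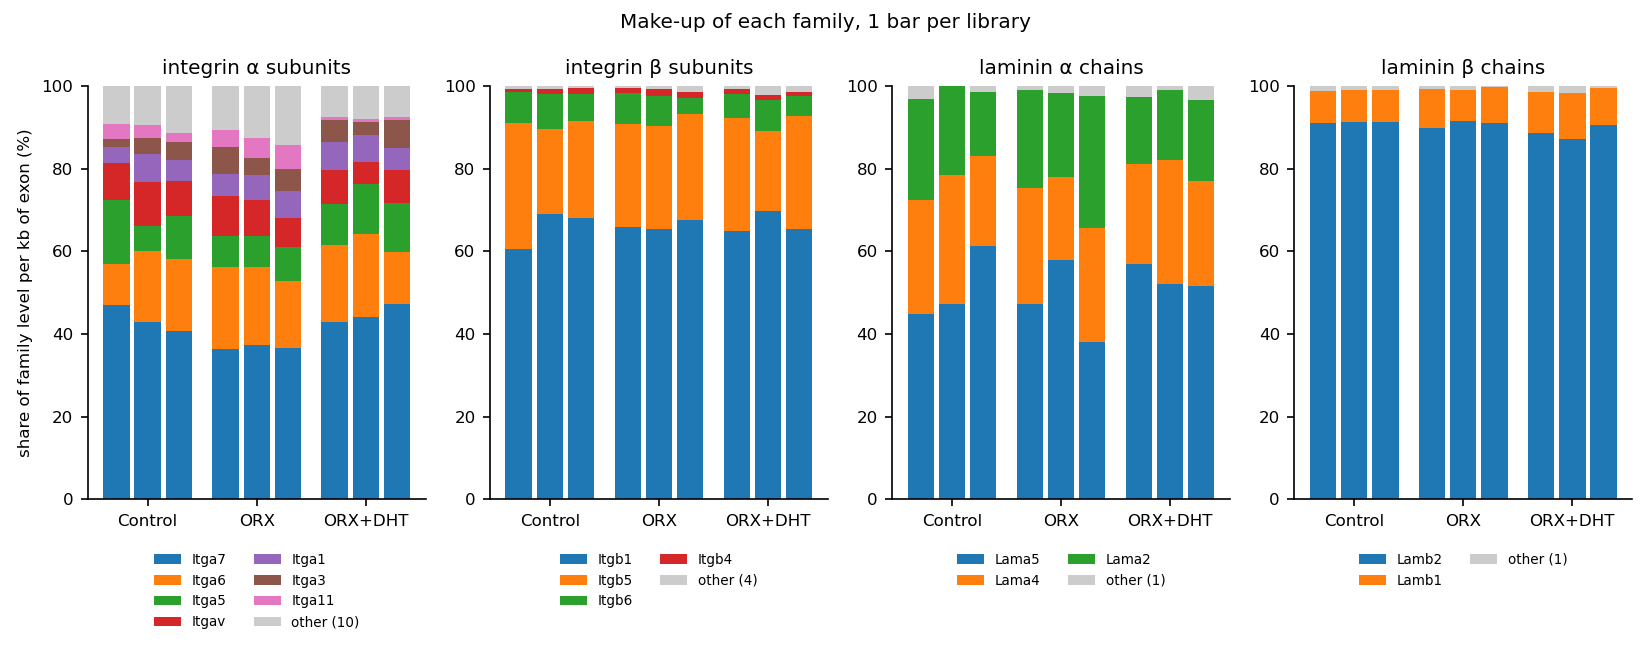
Share of each family's summed level per kb of exon (y axis, %) taken by each gene, with 1 stacked bar per library grouped as Control, ORX and ORX+DHT; smaller members are pooled in grey. Itga7 takes 36.4 to 37.3% of the integrin α level in ORX libraries and 40.8 to 47.2% in the others, while the Lamb2 and Itgb1 shares show no such step.

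The ORX+DHT against ORX comparison asks which transcripts differ when androgen is supplied to castrated males. Itga7, Itga5 and Lamc1 were called higher with DHT, and no tested member was called lower. These are the fibre's laminin receptor subunit, the fibronectin receptor subunit and the laminin γ chain shared by the common muscle laminins. The 3 genes are 15% of the 20 members tested, and edgeR on the recovered reads called the same 3. DESeq2 called Itga7 alone, limma after quantile normalisation called Itga5 and Itga7, and limma with all 9 libraries in 1 fit called none. Over all 8770 genes tested, 4.08% were called (limma, Benjamini-Hochberg adjusted p under 0.05), 2.38% higher and 1.70% lower. After quantile normalisation the split over all genes turned, from 209 higher and 149 lower to 161 and 166. At an unadjusted p under 0.05 there were 8 members of 20, against 14.3% of all genes. The 2 groups of libraries did not overlap for 5 members of 20 (25%), against 19.5% of all genes. The median log2 difference was 0.105 over the members and 0.006 over all genes, with 14 members above 0 and 6 below.

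Itga7 lies at chr10:128933818-128958282 on the plus strand (GRCm38). It measured 182, 164 and 151 normalised counts in ORX libraries and 224, 254 and 231 in ORX+DHT libraries, with 211, 192 and 205 in controls. Every ORX+DHT library was above every control, and every control above every ORX library. The means were 165 ± 15.6 in ORX and 236 ± 15.8 in ORX+DHT (SD, n = 3 each). The log2 difference was 0.52 (SE 0.11, 95% interval 0.29 to 0.74, limma adjusted p = 0.00669). Leaving out any 1 library gave limma adjusted p-values of 0.00491 to 0.0464, and fitting all 9 libraries together gave 0.0635. Of the integrin α level per kb it took 36.4 to 37.3% in the ORX libraries, against 43.0 to 47.2% with DHT. The muscle fibre marker sums were also lowest in ORX without overlap. Of that list Acta1 was called higher with DHT (0.47, limma adjusted p = 0.00357), without overlap. The other 4 were not called and overlapped between the groups: Tnnt3, Mylpf and Ckm differed by 0.18, 0.17 and 0.07, and Myh4 by -0.08. The part of the fibre markers in the Itga7 values was not tested.

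Itga5 lies at chr15:103344286-103366763 on the minus strand and encodes the α subunit that pairs with Itgb1 to bind fibronectin. Its normalised counts were 22.6, 19.6 and 20.7 in ORX and 31.4, 42.5 and 35.6 in ORX+DHT libraries, from 23 to 25 and 31 to 44 reads. The lowest ORX+DHT library stood above the highest ORX library, while controls at 42.5, 16.6 and 31.8 spanned both groups. The log2 difference was 0.77 (SE 0.21, 95% interval 0.33 to 1.20, limma adjusted p = 0.0429). The call was lost whichever library was left out (limma adjusted p = 0.0615 to 0.201), with no filter on low genes (0.0608), with all 9 libraries in 1 fit (0.356) and in DESeq2 (0.248).

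Lamc1 lies at chr1:153218922-153332786 on the minus strand. It measured 205, 165 and 151 normalised counts in ORX and 228, 247 and 222 in ORX+DHT libraries, again without overlap, with controls at 132, 233 and 198. The log2 difference was 0.43 (SE 0.12, 95% interval 0.19 to 0.67, limma adjusted p = 0.0443). The call held without ORX replicate 1 (limma adjusted p = 0.00672) and was lost without any 1 of the other 5 libraries, where the adjusted p reached 0.180. DESeq2 gave an adjusted p of 0.156, and limma gave 0.0915 after quantile normalisation and 0.501 with all 9 libraries in 1 fit.

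**Figure D2:**
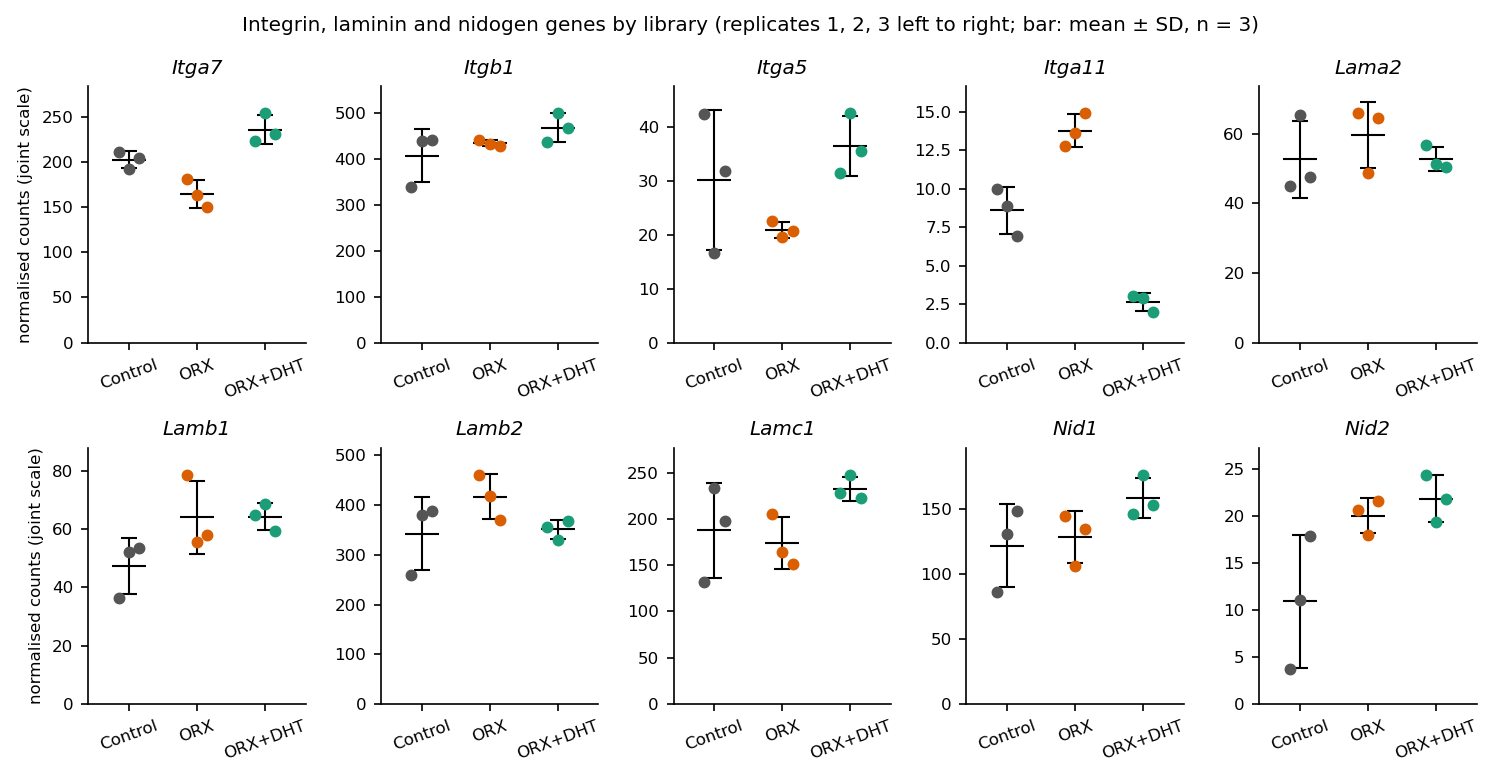
Normalised counts on the joint scale (y axis, linear from 0) of 10 members in each library, replicates 1, 2 and 3 from left to right in each group, with bars for the mean ± SD (n = 3). Itga7, Itga5 and Lamc1 are higher in all 3 ORX+DHT than in all 3 ORX libraries, and Itga11 is highest in ORX and lowest in ORX+DHT.

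The partners of these chains did not pass the test. Itgb1, the β subunit for both Itga7 and Itga5, measured 442, 433 and 428 normalised counts in ORX and 436, 499 and 467 in ORX+DHT libraries. The groups overlapped, and the log2 difference of 0.10 had a 95% interval of -0.08 to 0.28. Lama2, the α chain of the main fibre laminin, measured 65.8, 48.6 and 64.5 in ORX and 56.7, 51.2 and 50.4 in ORX+DHT (log2 difference -0.16, 95% interval -0.50 to 0.18). Lamb1, its β chain, measured 78.5, 55.4 and 57.9 in ORX and 64.9, 68.6 and 59.3 in ORX+DHT (0.02, -0.31 to 0.36). For Lama2 and Lamb1 the groups overlapped as well, and their intervals were wider than that of Itgb1.

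Lamb2, the β chain concentrated at nerve contacts and in vessels, measured 460.4, 419 and 371 normalised counts in ORX and 357, 329.7 and 368 in ORX+DHT libraries. All ORX+DHT libraries were below all ORX libraries, by -0.24 on the log2 scale (SE 0.10, limma adjusted p = 0.231). Nid1 had the opposite order, with 144, 106 and 135 in ORX and 146, 176 and 153 in ORX+DHT (0.31, SE 0.13, limma adjusted p = 0.258). Nid2 overlapped between the groups, at 20.6, 17.9 and 21.5 against 24.3, 19.3 and 21.7 normalised counts (0.12, 95% interval -0.36 to 0.60).

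Among members outside the fibre's own receptor set, the vessel-wall chains Lama5 (0.52, SE 0.19, limma adjusted p = 0.189) and Lama4 (0.41, SE 0.19, 0.337) were higher in ORX+DHT on average without passing. The ORX libraries ran from 53.8 to 96.4 normalised counts of Lama5 and those given DHT from 92.9 to 139.8, so the groups overlapped. Itga4, a receptor subunit for fibronectin and VCAM1 found on leukocytes, had the opposite sign (-0.74, SE 0.28, limma adjusted p = 0.201), with 18.2 to 32.4 and 10.9 to 20.3. The remaining 8 tested members, Itga1, Itga3, Itga6, Itga9, Itgav, Itgb4, Itgb5 and Itgb6, had log2 differences of -0.29 to 0.29. The 5 endothelial markers summed to 635 to 787 normalised counts in ORX and 759 to 883 with DHT, with 4 of 5 above 0 and a median log2 difference of 0.22. Pericyte and smooth muscle markers summed to 1129 to 1201 and 1312 to 1332, with 4 of 5 above 0, a median log2 difference of 0.15 and none called. Rgs5 was the largest part of this sum, with means of 819 in ORX and 953 with DHT, and Acta2 differed by -0.06. The part of these cells in the laminin values was not tested.

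Itga11 is the α subunit of a collagen receptor carried by fibroblasts, at chr9:62677826-62783982 on the plus strand. It was not picked by the rule for named genes and is described because of its values. It measured 12.8, 13.6 and 14.9 normalised counts in ORX libraries, 3.04, 2.90 and 1.98 in ORX+DHT libraries and 9.99, 8.85 and 6.95 in controls. These rest on 13 to 18, 2 to 3 and 7 to 8 reads a library. The 3 groups were fully separate, with ORX highest and ORX+DHT lowest, a different order from that of Itga7. Its mean over ORX and ORX+DHT was under 10, so it was not tested there. Without ORX+DHT replicate 3, its lowest library, it met the minimum through its ORX values alone and was called lower (-1.91, limma adjusted p = 0.00985). Because Itga11 was chosen for its values, this call and the fits without a filter describe it and do not test it. With no filter the log2 difference between ORX+DHT and ORX was -2.05 (SE 0.40, limma adjusted p = 0.00454), and edgeR without a filter gave -2.35 (adjusted p = 7.48e-05). Of the integrin α level per kb it took 4.04 to 5.70% in ORX libraries, 2.19 to 3.51% in controls and 0.637 to 0.921% with DHT.

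Summed fibroblast and tendon markers were also higher in every ORX library than in any ORX+DHT library. The 5 fibroblast markers (Pdgfra, Dcn, Col1a1, Col3a1 and Lum) summed to 2876 to 3841 normalised counts in ORX, 1700 to 2388 with DHT and 1352 to 2729 in controls, and of this list Col1a1 and Lum fell in ORX+DHT against ORX, 4 of 5 were below 0 and 1 above. The defining markers Pdgfra and Dcn differed by 0.06 and -0.05 and were not called. The 6 tendon markers (Tnmd, Scx, Fmod, Thbs4, Kera and Comp) summed to 487 to 795, 316 to 400 and 337 to 458, with Fmod called lower. Comp was at 0 in ORX+DHT replicate 1. Their part in the Itga11 values was not tested.

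The start regions of Itga5 and Itga11 are shown because Itga5 had the largest difference among the called members and Itga11, under the minimum level, the opposite sign. Itga7 and Lamc1 had no matching entry, and 24 of the 38 members had one. Each sequence runs from 250 bases before to 50 bases after the RefSeq start (GRCm38.p6), with GC boxes (GGGCGG or its reverse CCGCCC) in capitals. That of Itga5 is chr15:103366742-103367041 on the minus strand, and that of Itga11 chr9:62677605-62677904 on the plus strand.
Itga5: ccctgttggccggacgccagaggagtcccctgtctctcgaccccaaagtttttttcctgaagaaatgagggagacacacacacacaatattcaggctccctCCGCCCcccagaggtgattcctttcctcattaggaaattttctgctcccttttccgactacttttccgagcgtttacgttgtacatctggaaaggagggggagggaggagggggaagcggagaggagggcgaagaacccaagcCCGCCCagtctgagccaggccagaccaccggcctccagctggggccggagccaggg
Itga11: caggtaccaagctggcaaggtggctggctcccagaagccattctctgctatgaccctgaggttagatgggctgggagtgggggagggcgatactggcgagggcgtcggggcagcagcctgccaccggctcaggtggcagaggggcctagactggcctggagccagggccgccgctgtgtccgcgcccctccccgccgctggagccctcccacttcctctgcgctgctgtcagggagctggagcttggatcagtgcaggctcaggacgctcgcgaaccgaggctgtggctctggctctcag
The Itga5 region held 2 GC boxes, at bases 102 and 245 from its 5′ end, and the Itga11 region none; 35.7% of 32851 RefSeq promoters held at least 1. Neither held the androgen response element (AGAACA, any 3 bases, TGTTCT, on both strands, found in 0.00913% of promoters), nor one of its arms, AGAACA or TGTTCT (19.0%, a count that includes full elements). Neither held TATAAA on either strand (13.6%). GC content was 58.7% for Itga5 and 68.0% for Itga11, with a median of 52.7% over all promoters.

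The ORX against control comparison asks which transcripts differ after the testes are removed. No member was called (0 of 21), against 0.0579% of all 8631 genes in limma. At an unadjusted p under 0.05 limma gave 1 member, against 7.21% of all genes, edgeR called 0 with 1 at an unadjusted p under 0.05, and DESeq2 called 0 with 0. Groups did not overlap for 5 members (23.8%), Itga7, Itga9, Itga11, Lamb1 and Nid2, against 14.3% of all genes. The median log2 difference was 0.160 over the members and -0.008 over all genes. Without control replicate 1 the members' median was 0.011 and again no member was called.

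Itga7 was lower in ORX than in controls by -0.30 on the log2 scale (95% interval -0.62 to 0.03, limma adjusted p = 0.695), with all 3 ORX libraries below all 3 controls. Without control replicate 1 the difference was -0.27. All 5 fibre markers were below 0 in the same comparison with all controls, with a median of -0.42, and their part was not tested. Control replicate 1 was the highest control for Acta1, Ckm, Mylpf and Tnnt3 and the lowest for Myh4. Its fibre marker sum was 266654, against 219006 and 212533 in controls 2 and 3. The marker differences without control replicate 1 are not given here. Nid2, which measured 3.75, 11.1 and 17.9 normalised counts in controls, differed by 1.03 (95% interval 0.07 to 1.99, limma adjusted p = 0.677). Its lowest control was replicate 1, and without it the difference was 0.47. Lamb1 measured 36.2, 52.0 and 53.6 in controls, all below the ORX libraries (0.43, limma adjusted p = 0.695), and the difference without control replicate 1 was 0.25. Itga11 was higher in every ORX library than in any control (0.63, SE 0.31, limma adjusted p = 0.695), and 0.74 without control replicate 1. Itga9, a receptor subunit for tenascin-C, differed by 0.48 (SE 0.30) and did not pass either.

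The other chains of the fibre set overlapped between ORX and controls. Itgb1 was 340, 439 and 441 normalised counts in controls (0.10), Lama2 44.9, 65.2 and 47.7 (0.18), and Lamb2 258, 380.4 and 388 (0.30). Without control replicate 1 these 3 differences were -0.02, 0.08 and 0.11. Lamc1 differed by -0.09 with all controls and by -0.32 without control replicate 1, and Nid1, at 86.2, 130.5 and 148 in controls, by 0.10 and -0.13. Control replicate 1 was the lowest control for all 5 of these genes.

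The ORX+DHT against control comparison asks how far androgen-treated castrated males differ from controls. No member was called in limma (0 of 20), against 0.0349% of all 8595 genes. At an unadjusted p under 0.05 there were 2 members in limma, Nid2 and Lamb1, against 6.48% of all genes, 2 in edgeR and 1 in DESeq2, both of which called 0. Groups did not overlap for 3 members (15%), Itga7, Lamb1 and Nid2, against 14.0% of all genes. The members' median log2 difference was 0.262, with 17 above 0 and 3 below, and that of all genes -0.005. Without control replicate 1 the members' median was 0.112.

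Itga7 was higher in ORX+DHT than in controls by 0.22 (95% interval -0.08 to 0.52, limma adjusted p = 0.746), and by 0.25 without control replicate 1. Nid2 differed by 1.15 and Lamb1 by 0.45 (limma adjusted p = 0.736 for both), and by 0.59 and 0.28 without control replicate 1. Itga5 differed by 0.35 with the controls as given and by 0.63 without control replicate 1, its highest control. Itga11, again under the minimum level, was lower in every ORX+DHT library than in any control, by -1.40 with no filter (limma adjusted p = 0.377). Each group enters 2 of the 3 comparisons, so these share libraries and are not independent.

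**Figure D3:**
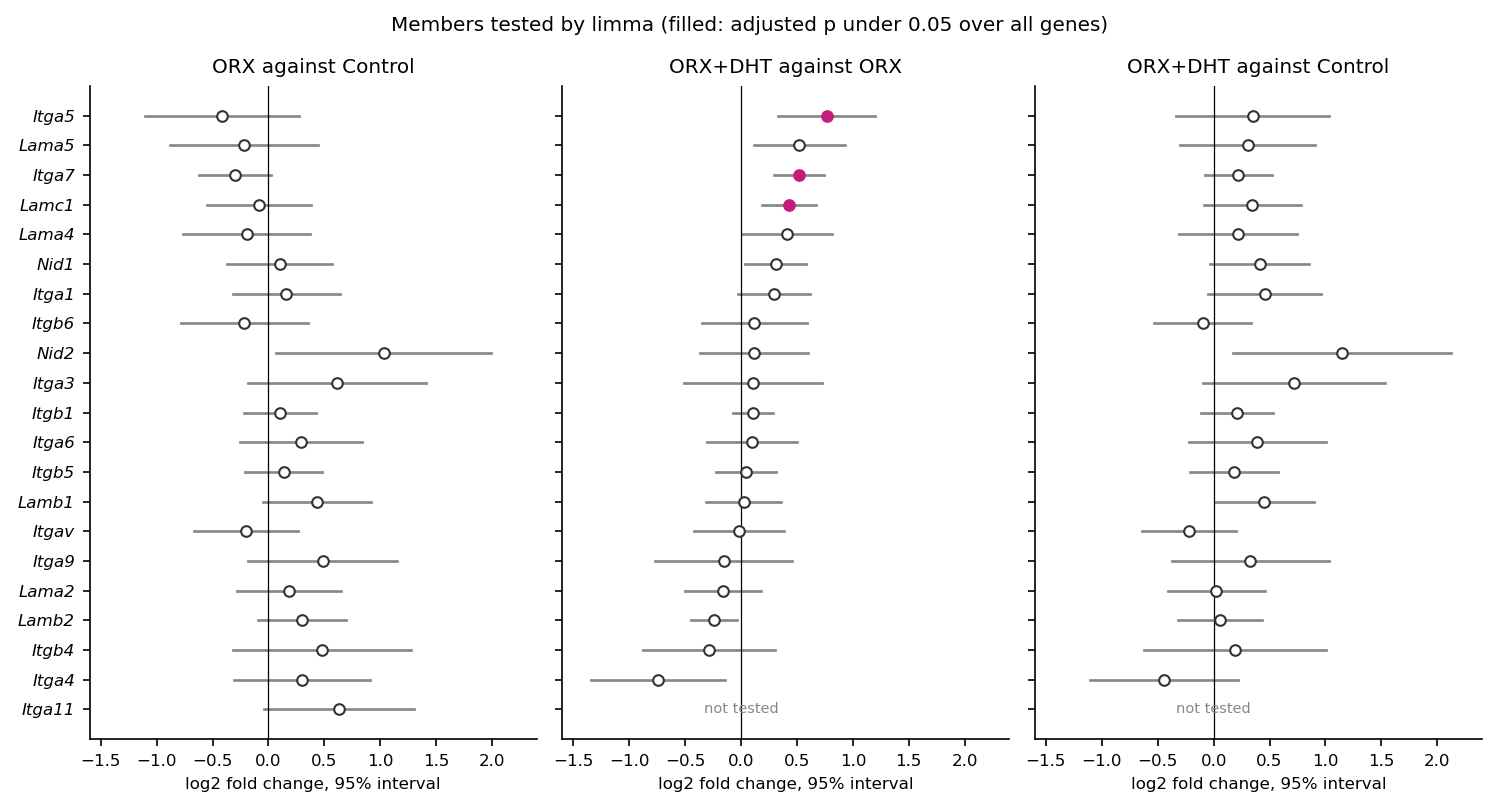
Log2 fold change (x axis) with its 95% interval for each tested member in the 3 comparisons, ordered by the ORX+DHT against ORX value; filled points have a limma adjusted p under 0.05 over all genes. The filled points are Itga5, Itga7 and Lamc1 in ORX+DHT against ORX, and the ORX against Control and ORX+DHT against Control panels have none.

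Genes that work with these chains were read from a list, of which 53 are reported. Of these, 40 were tested after orchiectomy, 40 for the effect of DHT and 37 between DHT-treated mice and controls. The list was chosen with earlier results of these data known, so its shares here and below do not measure an excess over all genes. In ORX+DHT against ORX 8 were called (20%, against 4.08% of all genes), 3 higher and 5 lower, and the median log2 difference of the 40 was 0.003, against 0.006 over all genes. The dystrophin gene Dmd and the dystroglycan gene Dag1 differed by 0.28 and -0.08 and were not called. Of 6 tested basement membrane partners 2 were called higher, both collagen IV chains. Of 15 integrin adaptors 1 was called higher. Of 11 matrix or soluble integrin ligands other than laminins 5 were called lower and none higher. Npnt (nephronectin, a ligand of the Itga8 and Itgb1 integrin) narrowly missed the threshold in the other direction and is named because of its values: 13.7, 8.53 and 10.8 normalised counts in ORX against 23.3, 22.2 and 20.8 with DHT (0.97, limma adjusted p = 0.0522). It was called higher by edgeR, with a pseudocount of 10, after quantile normalisation, with the replicate block and without ORX replicate 1.

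Collagen IV is the network to which nidogen ties laminin. Col4a1 measured 732, 668 and 525 normalised counts in ORX and 772, 888 and 876 in ORX+DHT libraries (log2 difference 0.41, limma adjusted p = 0.0377). Col4a2 measured 507, 481 and 414 in ORX and 599, 659 and 614 in ORX+DHT (0.42, limma adjusted p = 0.0103). Both were without overlap, like Lamc1, and both were higher in ORX+DHT than in controls by 0.67 and 0.65 without passing the test (limma adjusted p = 0.595 and 0.651). Without control replicate 1 both passed in that comparison (limma adjusted p = 0.0414 and 0.0429). The Col4a1 call was lost without any 1 of 5 of the 6 libraries (limma adjusted p up to 0.159) and in DESeq2 (0.0799), and the Col4a2 call without ORX+DHT replicate 2 (0.0636). Quantile normalisation ended both (limma adjusted p = 0.117 and 0.0531). The endothelial and pericyte marker sums given above were also higher on average with DHT, and their part was not tested.

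Vcl, vinculin, which couples integrin adhesions to actin, measured 69.7, 72.5 and 48.0 in ORX and 128, 141 and 106 in ORX+DHT (0.98, limma adjusted p = 0.00105). Its controls, at 41.2, 112 and 97.3, ran from below the lowest ORX library to above the lowest ORX+DHT library, with control replicate 1 lowest.

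The ligands called lower are matrix proteins that bind integrins. Postn (periostin) measured 265, 228 and 228 normalised counts in ORX and 42.6, 65.7 and 54.3 in ORX+DHT libraries (log2 difference -2.15, limma adjusted p = 3.6e-08). Tnn and Tnc, tenascins, differed by -3.30 and -1.70 (limma adjusted p = 6.1e-07 and 0.000459). Ibsp (bone sialoprotein) and Spp1 (osteopontin) differed by -4.05 and -2.78 (limma adjusted p = 2.31e-06 and 3.5e-05). For all 5 no ORX+DHT library reached the lowest ORX library. Ibsp, Spp1 and Tnn had ORX+DHT means of 2.97, 4.93 and 3.96 normalised counts, so they met the minimum mean of 10 through ORX alone. These means rest on 1 to 6, 3 to 7 and 3 to 5 reads a library, which leaves the sizes of the differences uncertain. Over the alternative settings that of Ibsp ran from -4.56 to -2.4. With all 9 libraries in 1 limma fit, Ibsp, Postn, Spp1 and Tnc passed, and Tnn (adjusted p = 0.0774), Vcl (0.181) and both collagen IV chains did not. The fibroblast and tendon marker sums given above move with them, and their part was not tested.

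Controls varied widely for these ligands. Ibsp measured 4.99, 0 and 33.8 normalised counts in controls 1, 2 and 3, against 55.0, 48.6 and 62.9 in ORX libraries, and Postn 81.2, 46.4 and 211. None of the reported partner genes was called in ORX against control or in ORX+DHT against control in limma (0 of 40 and 0 of 37, with 7 and 6, or 17.5% and 16.2%, at an unadjusted p under 0.05, against 7.21% and 6.48% of all genes), and edgeR and DESeq2 with the same filter also called 0. Without control replicate 3, whose Ibsp, Postn, Spp1 and Tnn values were the highest of the controls, these 4 genes were called higher in ORX than in controls (limma adjusted p = 0.00778, 0.00483, 0.0479 and 0.0115). Controls 1 and 2 then held 4.99 and 0 normalised counts of both Ibsp and Tnn, and 7.49 and 1.11 of Spp1. Ibsp, Tnn and Spp1 so met the minimum mean through the ORX libraries alone. Control replicate 3 is singled out here for the values of these same genes, so the calls without it do not test a difference. With all controls, edgeR without a filter called Ibsp, Postn, Spp1 and Tnn in ORX against control.

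**Figure D4:**
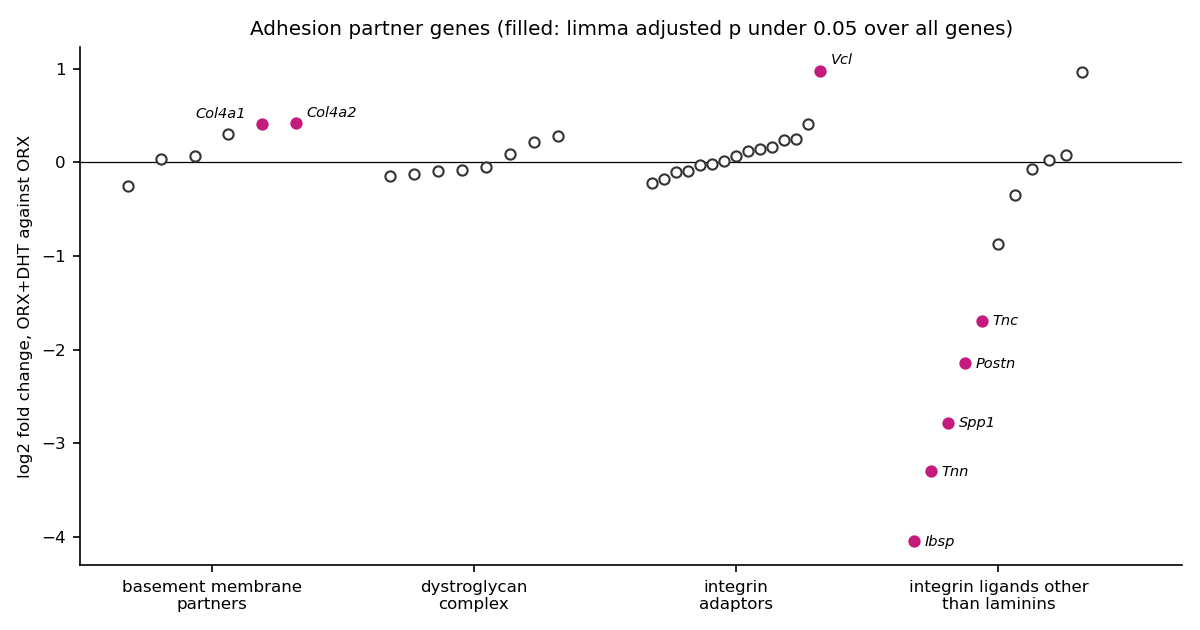
Log2 fold change in ORX+DHT against ORX (y axis) of the reported partner genes that were tested, in 4 lists from left to right; filled and named points have a limma adjusted p under 0.05 over all genes. Col4a1, Col4a2 and Vcl are above 0, and the named ligands lie between -1.70 for Tnc and -4.05 for Ibsp.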

How the data were processed

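RNA of 9 libraries was analysed from values the authors deposited as a scaled signal: normalised counts per gene, made by dividing the reads of a library by 1 factor. Per the submitters' processing notes, the tools were Trim Galore 0.6.7, HISAT2 2.2.1, featureCounts 2.0.1 and DESeq2 1.36.0, with build GRCm38; the annotation used for counting is not given in the sources used here. Libraries were polyA-selected and stranded, per the labels' protocols. The 2 tables (control with ORX, 14596 genes; ORX with ORX+DHT, 14675 genes) were scaled separately and each was tested alone. All values (100%, tolerance 1e-06) were whole multiples of a column's step, which gave reads. ORX+DHT against control used the 14300 shared genes, with reads of all 9 libraries rescaled by median-of-ratios factors over 10885 genes; printed levels are on this scale. Columns named sham were matched to controls by replicate number. With 1340209 to 1682235 reads a library, members under 10 counts rest on few reads, and reads are not independent molecules, as no molecular identifiers are described.

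Each comparison was fitted across the whole table with limma 3.58.1 (R 4.3.3; lmFit, eBayes with trend). The scale was log2(value + 1) and genes needed a mean of at least 10, with Benjamini-Hochberg adjustment over all genes tested and a threshold of 0.05. The added 1 shrinks the ratio of 2 low values, and a difference of mean logs can lie above or below the log ratio of the means. Alternatives were pseudocounts of 0.1 and 10, no filter, a minimum mean of 50, TMM and quantile normalisation, a fit of all 9 libraries, a replicate block, edgeR 4.0.16 and DESeq2 1.42.0 on the reads, and each library left out; edgeR without a filter was added after the data were seen. The fits were tested on simulated data. Exon lengths and gene positions are from GENCODE M21 (GRCm38). Named members were those called in any comparison, those without overlap and with an unadjusted p under 0.05, and 8 chains of the fibre basement membrane and its receptors in any case; of the partner list, each gene called, except that some items are not reported here and do not enter the partner counts. The members and the lists were chosen with earlier results of these data known.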

Additional observations from a re-analysis of the deposited data

How the results depend on the processing

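In ORX+DHT against ORX, where 3 members were called, all 9 libraries in 1 fit called 0, DESeq2 1 and edgeR without a filter (chosen after seeing the data) 5, adding Itga11 and Lama5; leaving out 1 library gave 1 to 2. The replicate block gave 4, adding Lama5 (limma adjusted p = 0.0120). Over all 3 groups together the numbers showed no common pairing of the libraries. Of 9 pairs with the same number 1 had a correlation over 0.1 (range -0.165 to 0.151), against 4 of 18 other pairs. Between ORX and ORX+DHT alone, each library correlated best with its own number (0.0611 to 0.151, against -0.0872 to 0.0248), a hint from the data and not from the design. No member was called in the other 2 comparisons under any alternative run. Of the 8 reported partner genes called in ORX+DHT against ORX, all 9 libraries in 1 fit called 4, and leaving out 1 library gave 6 to 10; it gave 0 to 4 in ORX against control and 0 to 2 in ORX+DHT against control. Over all genes, the 5 calls of ORX against control became 16 with no filter, 23 with all 9 libraries, 28 with DESeq2, 110 with edgeR without a filter and 1 to 51 with 1 library left out. The 358 of ORX+DHT against ORX became 123 with all 9 libraries, 571 with the block, 221 with DESeq2, 558 with edgeR without a filter and 223 to 350 with 1 library left out. The 3 of ORX+DHT against control became 21, 11, 13, 8 and 0 to 66 under the settings listed first, and 6 with quantile normalisation. Quantile normalisation put the share of higher calls at 33.3%, against 20% (ORX against control), and at 66.7%, against 33.3% (ORX+DHT against control); in ORX+DHT against ORX it was 49.2%, against 58.4%.

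Some small differences changed sign. In ORX against control, leaving out 1 library gave -0.0183 to 0.167 for Itgb1, -0.316 to 0.0907 for Lamc1 and -0.127 to 0.257 for Nid1. In ORX+DHT against ORX it gave -0.07 to 0.18 for Lamb1. In ORX+DHT against control it gave -0.0196 to 0.633 for Itga5, -0.0798 to 0.184 for Lama2 and -0.13 to 0.16 for Lamb2, and edgeR without a filter gave -0.002 for Lama2. The cause was not tested. Reads per library limit the members under 10 normalised counts.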
